A study of Mus musculus with 12 samples.

Results

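The genes described here carry the MHC class I pathway, through which cells display peptides from their own proteins to T cells. They were taken by symbol, as every row named H2-D1, H2-K1, H2-T23, B2m, Tap1, Tap2, Tapbp, Psmb8 or Psmb9. These 9 symbols matched 10 of the 37991 Ensembl genes, because Psmb9 had 2 overlapping entries. All 10 are protein coding, and 9 of the 10 lie on chromosome 17, with B2m on chromosome 2.

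Expression was measured by mRNA-seq in 12 libraries of adult mouse retina, 3 in each of 4 groups. The F0 groups were the inbred strains C57BL/6J, the reference strain, and Cast/EiJ, a wild-derived strain, and the F1 groups were their hybrids, F1 B6xCast with a C57BL/6J father and F1 CastxB6 with a Cast/EiJ father. All mice were males aged 8 weeks with no treatment, and each library was a pool of 6 to 8 retinas. F0 libraries were run on 1 lane and F1 libraries on 2, so lane number and generation cannot be told apart.

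A class I molecule consists of a polymorphic heavy chain, such as H2-K1 or H2-D1, bound to the invariant light chain beta-2 microglobulin, the product of B2m. Peptides are cut by the proteasome, in which Psmb8 and Psmb9 are the interferon-inducible subunits, and are pumped into the endoplasmic reticulum by the Tap1 and Tap2 transporter. Tapasin, the product of Tapbp, holds the empty heavy chain at the transporter until a peptide is loaded. Class I transcription is known to respond to NF-kB and to interferon through short promoter elements, and healthy neural retina is known for low class I levels.

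The 2 heavy chain genes on which most of the results turn share a promoter stretch. It joins a NF-kB motif to an interferon-stimulated element. The B2m promoter matched the letters searched for the second of these and not those searched for the first. Only the exact letters given below were searched, so other forms of a NF-kB site were not looked for. The sequences are shown because these 3 genes differed between the strains in different ways. All are reference (C57BL/6J) sequences from RefSeq on GRCm38.p6, each found once and without mismatch in NCBI37, the build of the expression tables, whose coordinates are given. Cast/EiJ sequence was not analysed here. Capitals mark matches on either strand to GGGGATTCC (NF-kB), AANNGAAA (interferon-stimulated element), TGACG (CRE-like) and CCAAT (Y box).
H2-D1, chr17:35399868-35399896, plus strand: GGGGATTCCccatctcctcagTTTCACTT
H2-K1, chr17:34137375-34137403, minus strand: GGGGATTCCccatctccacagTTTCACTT
H2-K1 promoter, chr17:34137293-34137542, minus strand: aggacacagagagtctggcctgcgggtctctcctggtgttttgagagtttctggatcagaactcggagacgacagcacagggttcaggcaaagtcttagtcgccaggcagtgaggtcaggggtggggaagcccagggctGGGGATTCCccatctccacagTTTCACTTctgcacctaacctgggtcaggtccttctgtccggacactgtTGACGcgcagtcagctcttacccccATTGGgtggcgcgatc
B2m promoter, chr2:121973173-121973421, plus strand: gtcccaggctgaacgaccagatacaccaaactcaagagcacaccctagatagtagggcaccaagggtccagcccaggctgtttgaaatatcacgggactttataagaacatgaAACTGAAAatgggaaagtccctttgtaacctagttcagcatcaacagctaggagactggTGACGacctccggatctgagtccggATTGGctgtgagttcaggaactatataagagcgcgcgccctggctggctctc

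The stretches of H2-D1 and H2-K1 had 29 bases each and differed at 1 position, T18A, with the H2-D1 base first and positions counted from the 5′ end. The H2-D1 stretch lay 171 to 143 bases before the RefSeq start and the H2-K1 stretch 111 to 83 bases before the first of 2 starts. The Ensembl entry of H2-D1 starts earlier, at chr17:35399675, so the H2-D1 stretch lies inside that entry. The NF-kB letters occurred in 70 of the 32851 mouse promoters of 250 bases, or 0.213%, and among the members with a promoter entry they occurred in H2-D1 and H2-K1. The other motifs are common, with a match in 21.3% of promoters for AANNGAAA, 17.8% for TGACG and 33.8% for CCAAT. Of the other members, H2-T23 had 2 matches to AANNGAAA and 1 to CCAAT, Tap1 and Psmb9 had 1 each to TGACG and CCAAT, Tapbp had 2 to CCAAT, and Psmb8 had none of the 4 motifs. The promoter of Tap2 was not analysed here. A match is a description of the letters and not a site of binding.

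Levels are given as count equivalents, which are estimated read numbers normalized across libraries. Unique hits count the pairs of reads with no other gene, and in F1 no other allele, to which they could belong. Each allele column of an F1 library is scaled to a whole library, so an F1 allele and a F0 strain can be set side by side in scale. F0 reads were mapped to the transcriptome of their own strain and F1 reads to those of both strains. This difference in mapping cannot be told apart from generation. Total unique hits per library were between 8158534 and 12363291. The labelled tissue fits its markers, since 6 rod genes alone summed to between 792100 and 864100 count equivalents in every library. Since the libraries are bulk tissue, fewer cells of a type and less RNA per cell cannot be told apart.

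Per transcript length, class I genes were modest in C57BL/6J retina. The mean over 3 libraries was 18.7 FPKM for Tapbp, 15.4 for B2m, 12.1 for H2-D1 and 7.74 for H2-K1, followed by 2.18 for Tap2, 1.43 for H2-T23, 0.994 for Psmb8 and 0.625 for Tap1. In Cast/EiJ, Tapbp at 21.0 FPKM and B2m at 8.96 FPKM again came first, but H2-D1 stood at 1.72 and H2-K1 at 0.913, near Tap2 at 1.37 and H2-T23 at 1.09, with Tap1 at 0.561 and Psmb8 at 0.324.

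**Figure D1:**
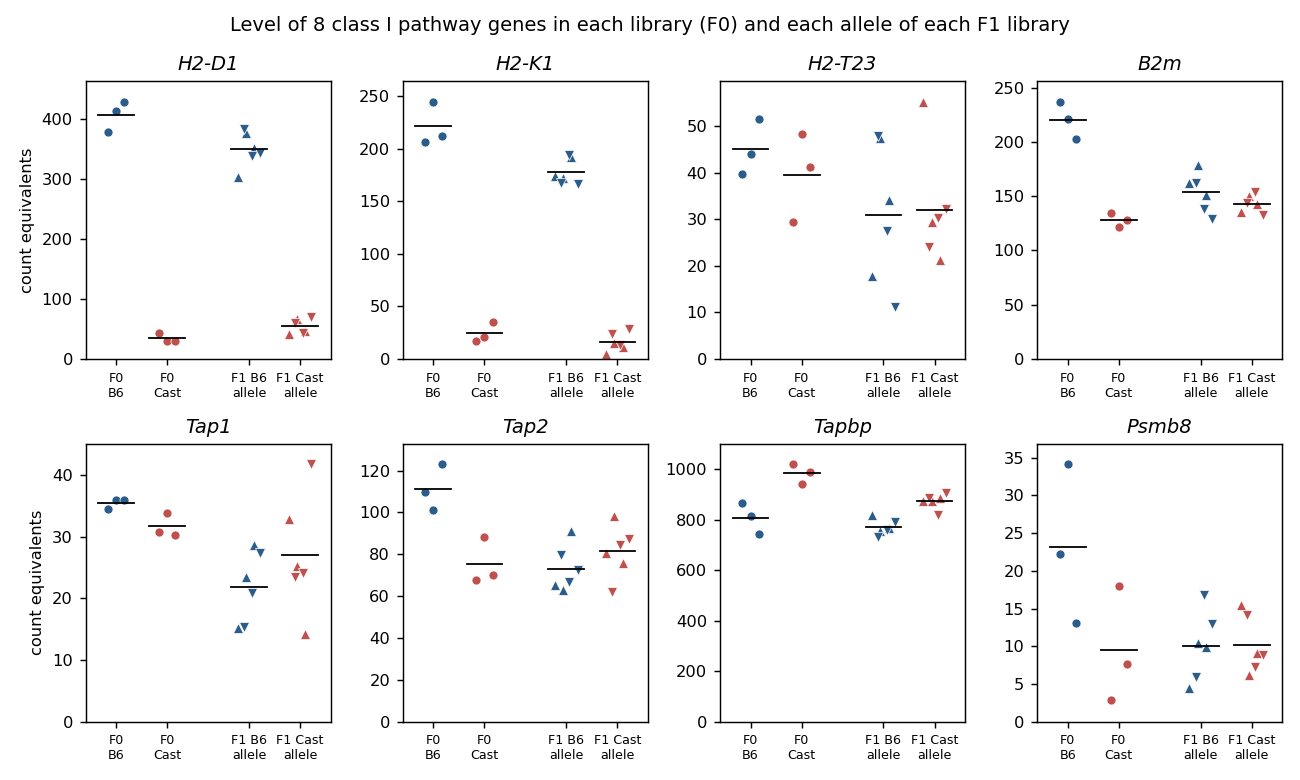
Count equivalents of 8 members on the y axis, with 3 F0 libraries per strain (circles) and both alleles of 6 F1 libraries (triangles up for F1 B6xCast, down for F1 CastxB6), and lines at the means. H2-D1 and H2-K1 are low in F0 Cast/EiJ and in the Cast/EiJ allele of F1, whereas B2m is low in F0 Cast/EiJ and similar in both alleles of F1.

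H2-D1, one of the classical class I heavy chains (chr17:35399675-35404444, plus strand), had 379, 413 and 429 count equivalents in the F0 C57BL/6J libraries. The F0 Cast/EiJ libraries had 44.0, 30.8 and 30.8. Every C57BL/6J library was far above every Cast/EiJ library. The mean fell from 407 ± 25.5 to 35.2 ± 7.62 (SD, n = 3 each), a difference of −3.51 on the log2 scale of count equivalents plus 1 (SE 0.168, 11.4-fold lower, adjusted p = 7.96e-07 by limma). In unique hits the libraries had 308, 379 and 334 against 21, 16 and 35, and edgeR gave an 11.5-fold difference (adjusted p = 1.21e-08). In F0 Cast/EiJ replicate 3 the FPKM of H2-D1, 2.36, was above those of the other replicates, 1.57 and 1.22, although its count equivalents were not. The deposited log expression gave a smaller F0 difference of −2.87.

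Both alleles of an F1 library were measured in the same pooled retinas. The C57BL/6J allele of H2-D1 had 303, 377 and 352 count equivalents in F1 B6xCast and 384, 339 and 344 in F1 CastxB6. Its Cast/EiJ allele had 40.9, 66.6 and 46.4 in F1 B6xCast and 60.4, 42.8 and 70.7 in F1 CastxB6. No library came near to equal alleles. The means were 350 ± 29.2 and 54.6 ± 12.9 (SD, n = 6), a log2 difference of −2.69 (SE 0.127, 6.43-fold lower, adjusted p = 2.50e-11).

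H2-K1, the other classical heavy chain of the reference strain (chr17:34132962-34137278, minus strand), had 207, 245 and 212 count equivalents in F0 C57BL/6J. F0 Cast/EiJ had 17.6, 21.1 and 34.8, again with no overlap. The means were 221 ± 20.6 and 24.5 ± 9.09 (SD, n = 3 each), a log2 difference of −3.18 (SE 0.244, 9.05-fold lower, adjusted p = 1.92e-05). By unique hits, 175, 227 and 172 against 10, 12 and 26, edgeR gave 9.64-fold (adjusted p = 1.95e-07).

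In F1 the C57BL/6J allele of H2-K1 had 174, 172 and 192 count equivalents in F1 B6xCast and 168, 194 and 167 in F1 CastxB6. Its Cast/EiJ allele had 4.83, 15.4 and 11.7, then 24.2, 13.0 and 28.4. The C57BL/6J allele was therefore steady between libraries, and the Cast/EiJ allele low and uneven. The means were 178 ± 12.0 and 16.3 ± 8.64 (SD, n = 6), a log2 difference of −3.55 (SE 0.220, 11.7-fold lower, adjusted p = 8.55e-10).

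H2-D1 and H2-K1 kept their F0 and allelic calls in all settings tried and without any 1 library. The share of tags from the Cast/EiJ allele gives the same contrast without estimation. Of the allele-specific unique hits of H2-D1, 206 of 1719 came from the Cast/EiJ allele, or 12.0% (Wilson 95% interval 10.5 to 13.6%), with 10.6 to 13.4% in single libraries. For H2-K1 it was 57 of 718, or 7.94% (6.18 to 10.15%), with 3.53 to 12.4% in single libraries. Over all polymorphic autosomal genes the share was between 49.5 and 49.6% in each library. Intervals on shares cover counting error only.

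**Figure D2:**
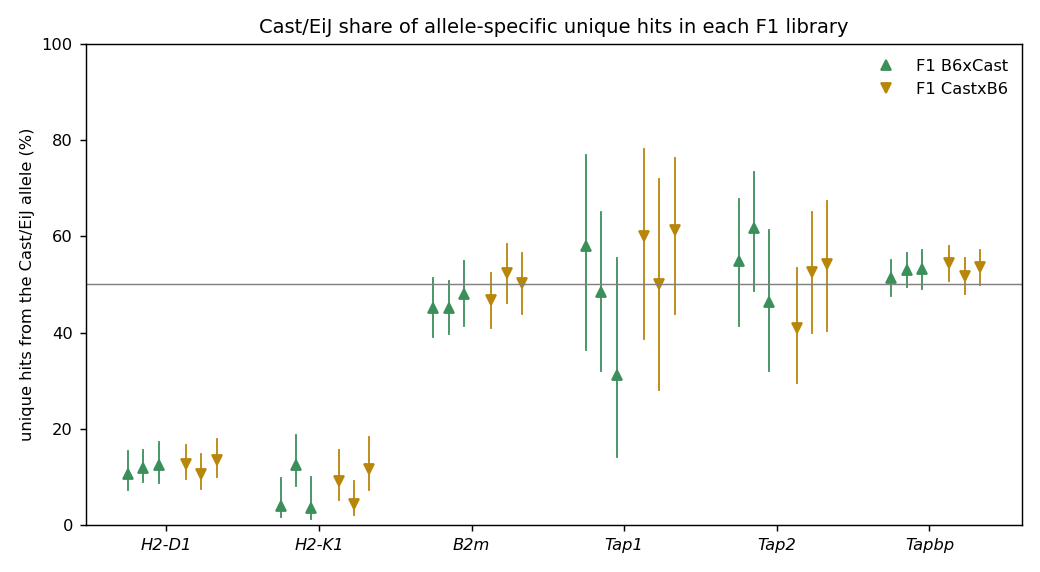
Share of allele-specific unique hits from the Cast/EiJ allele (%, y axis) for 6 members in each of 6 F1 libraries, with Wilson 95% intervals and a line at equal alleles. H2-D1 and H2-K1 lie at or below 13.4% in each library, and B2m, Tap1, Tap2 and Tapbp lie around the line.

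How many of the reads could be told apart bears on these values. In F1, H2-D1 had 72.1 unique hits per 100 count equivalents on its C57BL/6J allele and H2-K1 had 61.9, against a median of 45.8 over 9990 genes, and the Cast/EiJ alleles had 62.8 and 58.4. Pooled over the F0 Cast/EiJ libraries they had 68.2 and 65.3 (median 69.1), and over F0 C57BL/6J 83.6 and 86.4 (median 86.8). The single F0 Cast/EiJ libraries had 47.7, 51.9 and 113.6 for H2-D1, at percentiles 5.43, 7.43 and 99.6 of all genes. In F0 Cast/EiJ replicate 3 the unique hits of H2-D1, 35, were more than its count equivalents, 30.8. Windows of 1 read length along the reference transcripts were specific to the gene at 96.1% for H2-D1, which shared windows with 10 genes, and at 100% for H2-K1. These windows say nothing of the Cast/EiJ transcripts, which the authors had built from called variants. Whether reads of diverged Cast/EiJ heavy chains were lost at this step was not tested.

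B2m, the light chain shared by all class I molecules (chr2:121973422-121978819, plus strand), showed another pattern. It had 237, 221 and 203 count equivalents in F0 C57BL/6J and 134, 122 and 128 in F0 Cast/EiJ, with no overlap. The means were 220 ± 17 and 128 ± 6.0 (SD, n = 3 each), a log2 difference of −0.78 (SE 0.117, 1.71-fold lower, adjusted p = 0.00112 by limma). In F1 the alleles stood close to each other. The C57BL/6J allele had 162, 179 and 151 in F1 B6xCast and 162, 138 and 129 in F1 CastxB6, and the Cast/EiJ allele 135, 150 and 143, then 144, 154 and 133. The allelic difference was −0.09 (95% interval −0.25 to 0.06, adjusted p = 0.307), and 733 of 1534 unique hits were from Cast/EiJ, or 47.8% (45.3 to 50.3%). With 87.0 unique hits per 100 count equivalents on the C57BL/6J allele, B2m was at the 96.5th percentile of all genes for reads that could be assigned.

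Tapbp, encoding tapasin (chr17:34052844-34066235, plus strand), was the member that went the other way. It had 866, 815 and 745 count equivalents in F0 C57BL/6J and 1020, 942 and 989 in F0 Cast/EiJ. The groups did not overlap, yet the difference was small, 0.28 (SE 0.0803, 1.22-fold higher, adjusted p = 0.0243). In F1 the Cast/EiJ allele was the higher one in each library, at 818 to 906 against 733 to 821, a difference of 0.18 (SE 0.0432, 1.13-fold, adjusted p = 0.00242), and it held 2204 of 4170 unique hits, 52.9% (51.3 to 54.4%). Both calls were lost on the deposited log expression (adjusted p = 0.2 in F0 and 0.261 for the alleles). The F0 call was also lost without F0 C57BL/6J replicate 2 or 3 or F0 Cast/EiJ replicate 1 or 3 (adjusted p from 0.0651 to 0.0832), by DESeq2 on unique hits (0.0502), with no filter on low values (0.0798) and with quantile normalization (0.0825).

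The transporter genes lie next to Psmb8 and Psmb9. Tap2 (chr17:34340472-34353266, plus strand) had 90, 89 and 96 unique hits in F0 C57BL/6J and 37, 50 and 50 in F0 Cast/EiJ, with no overlap. Its count equivalents had means of 111 ± 11.1 and 75.2 ± 11.2 (SD, n = 3 each), a log2 difference of −0.56 (SE 0.164, 1.48-fold lower, adjusted p = 0.027). This call was lost without F0 C57BL/6J replicate 1 or 3 or F0 Cast/EiJ replicate 1 or 3 (adjusted p from 0.0535 to 0.0942) and with no filter on low values (0.0834). The alleles of Tap2 overlapped in F1, with 62.8 to 91.2 for C57BL/6J and 62.1 to 98.4 for Cast/EiJ, and did not pass the test (0.15, 95% interval −0.10 to 0.41, adjusted p = 0.319). Tap1 (chr17:34324498-34334170, plus strand), its partner subunit, had 34.4, 36.0 and 35.9 count equivalents against 30.8, 33.8 and 30.3, groups that lay just apart, with a difference of −0.16 (95% interval −0.61 to 0.29, adjusted p = 0.562). Its alleles ranged from 15.2 to 28.7 and from 14.2 to 41.7 in F1 (0.26, adjusted p = 0.322), and without F1 B6xCast replicate 3 their difference was 0.52 (adjusted p = 0.0394).

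H2-T23, a non-classical heavy chain known as Qa-1 (chr17:36166718-36169800, minus strand), had 39.7, 44.0 and 51.4 count equivalents in F0 C57BL/6J and 29.4, 48.2 and 41.1 in F0 Cast/EiJ. These overlapped, and the difference of −0.20 had a 95% interval from −0.74 to 0.33 (adjusted p = 0.54). Its alleles could hardly be told apart, with 36 allele-specific unique hits over the 6 F1 libraries, so it was not tested in F1. Of these, 19 were from Cast/EiJ (Wilson 95% interval of the share 37.0 to 68.0%).

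Psmb8, the immunoproteasome subunit also called LMP7 (chr17:34334666-34338399, plus strand), had 22.2, 34.1 and 13.1 count equivalents in F0 C57BL/6J and 2.88, 18 and 7.64 in F0 Cast/EiJ. The groups overlapped through F0 Cast/EiJ replicate 2. The difference was −1.39 (SE 0.582) and did not pass the test of limma (adjusted p = 0.0963) or of DESeq2 on unique hits (0.0627), but passed that of edgeR on unique hits (0.0331) and limma without that library (−1.96, adjusted p = 0.0304). The 2 entries of Psmb9 (chr17:34318932-34324697 and chr17:34318933-34324709, minus strand) share most of their windows, 99.9% and 79.7%. They had 0.539 to 8.12 count equivalents and together 1 unique hit, and could not be tested.

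Counted over the members, 8 of 10 entries passed the filter in F0 and 5 of the 8 passed the test. Over all 14452 genes tested, 33.8% passed. Lower in Cast/EiJ were 4 of the 8, H2-D1, H2-K1, B2m and Tap2, against 16.6% of all genes, and 1, Tapbp, was higher, against 17.2%. The median difference of the 8 was −0.67, and that of all genes 0.03. With 8 genes a share has little precision. Between the alleles, 3 of 6 members tested passed, against 47% of 13414 genes, with H2-D1 and H2-K1 lower and Tapbp higher in Cast/EiJ (23.5% of all genes lower and 23.5% higher). The share of members called between the alleles was thus near that of all genes, and what stood apart was the size for H2-D1 and H2-K1, which ranked 229th and 134th of all 13414 genes.

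**Figure D3:**
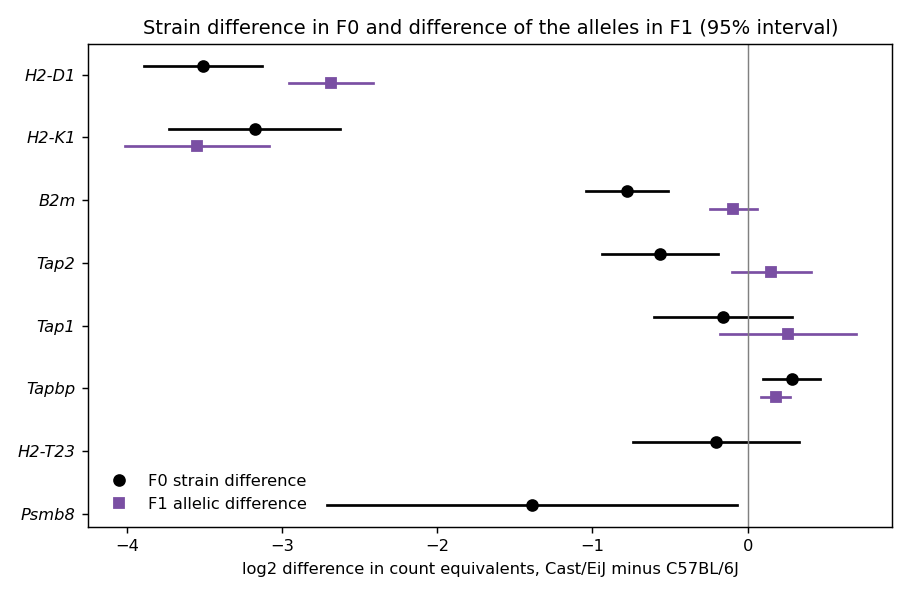
Log2 difference (x axis, Cast/EiJ minus C57BL/6J, count equivalents plus 1) between the F0 strains (black circles) and between the F1 alleles (purple squares), with 95% intervals. The intervals of H2-K1 overlap, the intervals of H2-D1, B2m and Tap2 do not overlap, and H2-T23 and Psmb8 were not tested in F1.

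A trans effect is taken here as the F0 strain difference minus the F1 allelic difference, since both alleles of a hybrid meet the same regulatory factors. It also holds any effect of lane number and of the mapping reference, which differed between F0 and F1. It passed the test in 3 of 6 members, against 14% of all genes. In B2m it was −0.68 (SE 0.131, adjusted p = 0.00194), nearly the whole F0 difference, and it passed in all settings tried and without any 1 library. In H2-D1 it was −0.83 (SE 0.230, adjusted p = 0.0234), beside an allelic difference of −2.69 in the same direction. That call was lost on the deposited log expression (−0.40, adjusted p = 0.425) and without F0 C57BL/6J replicate 2 or 3, F0 Cast/EiJ replicate 2 or 3 or F1 CastxB6 replicate 3 (adjusted p from 0.0543 to 0.0679). In Tap2 it was −0.72 (SE 0.219, adjusted p = 0.0377), and this was lost without any 1 of 8 libraries, F0 C57BL/6J replicates 1 and 3, F0 Cast/EiJ replicates 1 and 3, F1 B6xCast replicates 1 and 2 and F1 CastxB6 replicates 2 and 3 (adjusted p from 0.0584 to 0.102). H2-K1 (0.37, SE 0.401, adjusted p = 0.591), Tapbp (0.10, adjusted p = 0.42) and Tap1 (−0.42, adjusted p = 0.504) did not pass.

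Each allele in F1 was then set against its own F0 strain. For the C57BL/6J allele 2 of 6 members passed, against 3.87% of all genes, and both were lower in F1. B2m had a mean of 153.5 ± 18.1 in F1 (SD, n = 6) and 220 ± 17 in F0, a log2 difference of −0.52 (SE 0.0946, adjusted p = 0.00356), and every F1 value was below every F0 value. Tap2 had 73.1 ± 10.8 in F1 and 111 ± 11.1 in F0, a difference of −0.61 (SE 0.158, adjusted p = 0.0399), which was lost without any 1 of 7 libraries (adjusted p up to 0.165). These were any F0 C57BL/6J replicate, F1 B6xCast replicate 1 or 2, and F1 CastxB6 replicate 2 or 3. The C57BL/6J alleles of H2-D1 (−0.22, adjusted p = 0.58) and H2-K1 (−0.31, adjusted p = 0.667) did not pass.

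For the Cast/EiJ allele 1 of 6 members passed, against 16.5% of all genes. It was H2-D1, with 54.6 ± 12.9 in F1 (SD, n = 6) and 35.2 ± 7.62 in F0, a difference of 0.61 (SE 0.167, adjusted p = 0.0195). The ranges overlapped at the lower end, and the call was lost without F0 Cast/EiJ replicate 2 or 3 or F1 CastxB6 replicate 3 (adjusted p from 0.0532 to 0.0936). The Cast/EiJ allele of H2-K1 went the other way (−0.68, adjusted p = 0.122). For B2m it was 143 ± 8.18 in F1 and 128 ± 6.0 in F0 (0.16, adjusted p = 0.277). In F1 retina the B2m alleles ranged from 129 to 179 and from 133 to 154 count equivalents, and both ranges overlapped that of F0 Cast/EiJ. The means of both alleles lay between those of the F0 strains and nearer to that of Cast/EiJ.

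Between the maternal and the paternal allele, 0 of 6 members passed limma and 0 passed edgeR on unique hits, against 0.492% of all genes by limma. At an unadjusted p under 0.05 there was 1, H2-K1 (−0.53, adjusted p = 0.651), for which unique hits gave −0.07 (adjusted p = 0.998). For the summed expression of both alleles in F1 CastxB6 against F1 B6xCast, 0 of 8 members passed limma or edgeR and 0 had an unadjusted p under 0.05 in limma, against 0.0401% of all genes called by limma. The differences ranged from −0.26 for H2-T23 to 0.23 for Psmb8.

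Levels of other lists moved with B2m, and their part in its difference was not tested. The interferon response list, 16 genes that mark interferon signalling, summed to 1635 to 1728 count equivalents in F0 C57BL/6J, 984 to 1093 in F0 Cast/EiJ and 1040 to 1202 in F1, averaged over the alleles. Of its 15 genes tested, 10 fell in F0 Cast/EiJ and 2, Bst2 and Xaf1, rose, with a median difference of −1.19. Of all genes 16.6% fell and 17.2% rose. Irf7, the master regulator of type I interferon responses, went from 257 to 22.2 count equivalents (−3.37, adjusted p = 2.42e-04), and Oasl2, an interferon-induced gene, from 153 to 3.99 (−5.10, adjusted p = 2.52e-05). The C57BL/6J alleles of 4 of the 11 genes tested, Ifitm3, Irf7, Oasl2 and Ifit1, were also lower in F1 than in F0, against 3.87% of all genes. Unlike those of B2m, the F1 alleles of 8 of the 11 genes were unequal by the test, against 47% of all genes. The Cast/EiJ allele was lower in Oasl2 (−2.05), Irf7 (−1.13), Ifit2, Ifit3 and Ifitm3 and higher in Ifit1, Xaf1 and Bst2. The Cast/EiJ alleles of Oasl2 (1.74) and Irf7 (1.05) were higher in F1 than in F0.

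Microglia, the resident immune cells of the retina, express class I genes and B2m. The summed microglia list of 14 genes had 732 to 747 count equivalents in F0 C57BL/6J, 526 to 607 in F0 Cast/EiJ and 507 to 566 in F1. Of 12 tested, 6 fell in F0 Cast/EiJ (C1qa, C1qb, C1qc, Itgam, Ctss and Cx3cr1), against 16.6% of all genes, and the median was −0.79. A list of T cell and other leukocyte genes summed to 8.24 to 26.0 in all libraries, and none of its 8 genes reached the filter. Blood genes summed to 688 to 1041 in F0 C57BL/6J, 373 to 634 in F0 Cast/EiJ and 277 to 373 in F1, and pigment epithelium genes to 241 to 283, 88.0 to 133 and 121 to 294. The endothelial and pericyte list, 4314 to 6185, overlapped between the groups. Of its 10 genes 3 were lower in F0 Cast/EiJ, Pecam1 (−0.98), Cdh5 (−0.96) and Rgs5 (−1.62), against 16.6% of all genes. Kdr was higher (0.65, 1993 to 3117), against 17.2% of all genes, and the median of the 10 was −0.39.

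**Figure D4:**
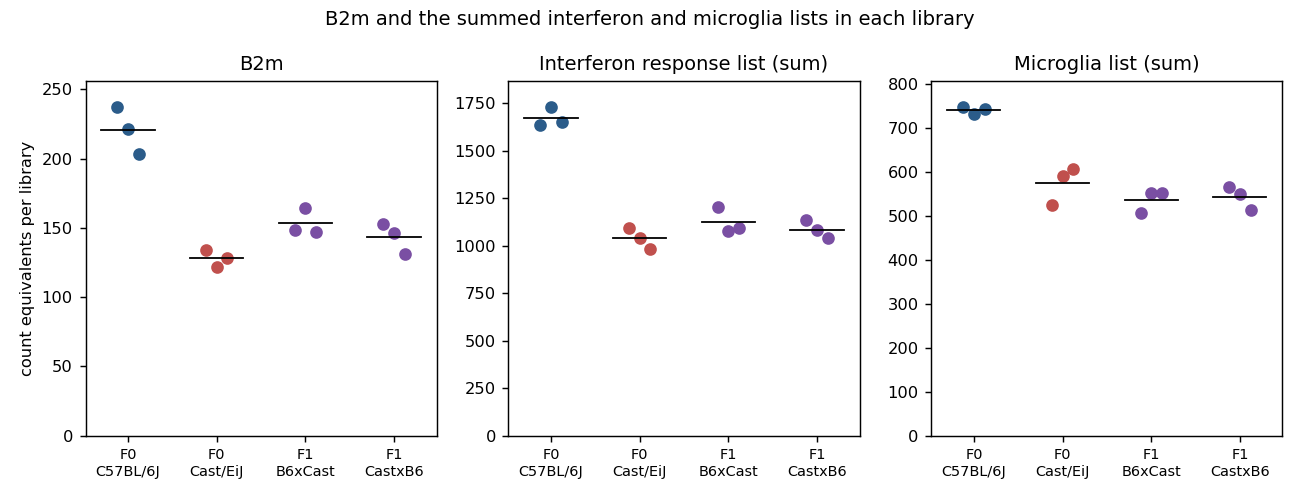
Count equivalents per library (y axes) of B2m and summed over 16 interferon response genes and 14 microglia genes, by group, with lines at the means and F1 values averaged over both alleles. In all 3 panels the F0 C57BL/6J libraries lie above every other library, and F0 Cast/EiJ and F1 lie close together.

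Some other heavy chains and related molecules fell with H2-D1 and H2-K1. Apart from the members, 10 genes of this list of 25 were tested in F0. Of the 10, 6 were lower in Cast/EiJ, against 16.6% of all genes, and the median of the 10 was −0.85. The highest of them in the retina, H2-Q4, a class Ib gene, had a mean of 291 in F0 C57BL/6J and 193 in F0 Cast/EiJ (−0.59, adjusted p = 0.00958), and between its alleles the difference was −0.40 (adjusted p = 0.0232). H2-T24, another class Ib gene, went from 202 to 25.7 (−2.96, adjusted p = 1.90e-05; alleles −2.54, adjusted p = 4.41e-10). Hfe, a class I-like protein of iron metabolism, went from 131 to 39.2 (−1.72, adjusted p = 1.69e-04; alleles −0.93, adjusted p = 1.22e-05). H2-T22, Mr1 and Fcgrt were the others. Between the alleles 5 of 8, H2-T24, Hfe, Mr1, H2-Q4 and Fcgrt, had a lower Cast/EiJ allele, against 23.5% of all genes, with a median of −0.38. Near-identical heavy chain genes share reads, so values of single H2-Q and H2-T genes are uncertain.

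The summed count equivalents of 22 H2 class I genes were 1371 to 1552 in F0 C57BL/6J and 488 to 577 in F0 Cast/EiJ. In F1 they were 1031 to 1280 on the C57BL/6J alleles and 392 to 607 on the Cast/EiJ alleles. Such sums do not depend on how reads were divided among these 22 genes. They still depend on how reads were divided with genes outside the list and, in F1, between the alleles. Without H2-D1, H2-K1 and H2-T23 the sums were 679 to 915 in F0 C57BL/6J and 381 to 477 in F0 Cast/EiJ, which did not overlap, and 453 to 680 and 265 to 528 on the F1 alleles, which did. In F1 B6xCast replicate 3 the Cast/EiJ alleles of these other genes were the higher, at 528 against 453. Their unique hits in that library went the other way, with 36 on the Cast/EiJ alleles and 110 on the C57BL/6J alleles. In each F1 library these hits were fewer on the Cast/EiJ alleles, at 36 to 67 against 110 to 179.

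Genes of peptide supply and loading behaved otherwise. Of 13 other proteasome and peptidase genes 1 passed in F0, or 7.69% against 33.8% of all genes, and 3 passed between the alleles, or 23.1% against 47%. The one in F0 was Erap1, which trims peptides in the endoplasmic reticulum, from 189 to 431 (1.20, adjusted p = 1.27e-04). Its Cast/EiJ allele was also higher in F1 (1.40, adjusted p = 1.73e-10), while Psmb6 (−0.36, adjusted p = 0.00137) and Lap3 (−0.32, adjusted p = 0.0105) were lower. Of 7 other loading genes and chaperones 4 were higher in F0 Cast/EiJ and 1 lower, with a median of 0.39. Of all genes 17.2% were higher and 16.6% lower. The higher ones in the list were Pdia3, the ERp57 disulfide isomerase (1623 to 2410, 0.57, adjusted p = 0.00135), the chaperone gene Calr (0.46), and Ganab (0.39) and Uggt1 (0.32), which act on the sugar chains of new glycoproteins. Tapbpl, the tapasin-related peptide editor, was the lower one (69.1 to 32.3, −1.08, adjusted p = 0.00268), with alleles at −0.64 (adjusted p = 3.73e-04).

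Among 20 regulators of class I transcription 2 were higher in F0 Cast/EiJ, Nfya (0.34) and Jak1 (0.26), and 4 lower, the interferon gamma receptor genes Ifngr2 (−0.68) and Ifngr1 (−0.49), Rfxank (−0.43) and Nfyb (−0.31), with a median of −0.09. The 6 called were 30% of the list, against 33.8% of all genes. Between the alleles 4 of 19 were lower in Cast/EiJ, Nfyc, Nfyb and both receptor genes, against 23.5% of all genes. Both interferon gamma receptor genes had lower Cast/EiJ alleles (Ifngr2 −0.53, adjusted p = 4.11e-04; Ifngr1 −0.24, adjusted p = 0.00672). Of the class II genes, which present peptides from outside the cell, 2 of 12 reached the filter in F0, and the list summed to 64.1 to 82.8 count equivalents in F0 C57BL/6J and 47.7 to 50.3 in F0 Cast/EiJ.

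The members on chromosome 17 span 2.117 Mb (NCBI37 chr17:34052844-36169800), with 195 other genes between Tapbp and H2-T23. Of these, 91 were tested in F0, 17 higher and 8 lower in Cast/EiJ, with a median of 0.15. Without the H2 class I genes the counts were 17 and 4 of 83, and the median was 0.18. These called genes were 27.5% and 25.3% of those tested, against 33.8% of all genes. Between the F1 alleles 71 were tested, 15 higher and 14 lower in Cast/EiJ, with a median of 0.03, against 23.5% of all genes higher and 23.5% lower. The largest falls were those of H2-K2, a class I gene near H2-K1 (55.7 to 0.764, −5.23), Rps18, a ribosomal protein gene (1563 to 78.0, −4.34), and Gm17414 (385 to 28.7, −3.76). The F1 alleles of Rps18 had means of 1715 and 1690 count equivalents (−0.02, adjusted p = 0.897) but 8624 and 541 unique hits, whereas those of H2-K2 (−5.97) and Gm17414 (−2.93) passed the test. The largest rises were those of C4a (2.33), D17H6S56E-5 (2.18) and C2 (1.68), where C4a and C2 encode complement components.

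**Figure D5:**
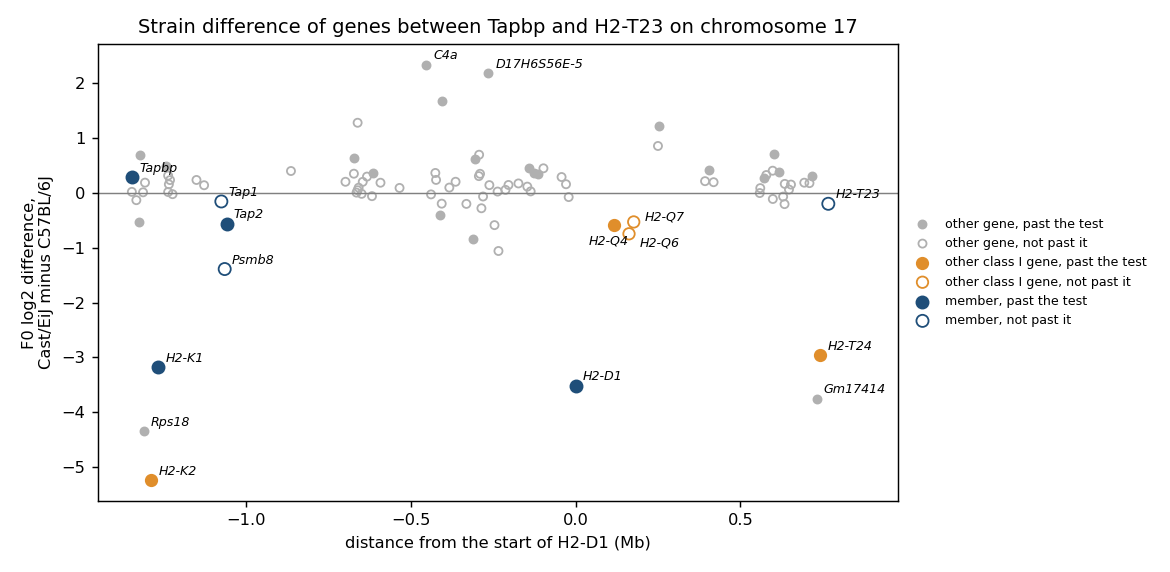
F0 log2 difference (y axis, Cast/EiJ minus C57BL/6J) of the genes tested between Tapbp and H2-T23, by distance from the start of H2-D1 (x axis, Mb), with filled points for genes past the test. H2-D1 at −3.51 and H2-K1 at −3.18 lie more than 1 Mb apart, with most genes between them near 0.

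The pattern of a member over the 18 columns (6 F0 libraries and 12 alleles) was compared with that of 9831 genes averaging 100 or more count equivalents. For H2-D1 the highest Pearson r were those of Tube1 (0.991), Heatr5a (0.991) and Rpl21 (0.989), on chromosomes 10, 12 and 5, and for H2-K1 those of Arl4a (0.970), Myo7a (0.968) and Ppa2 (0.968), on chromosomes 12, 7 and 3. All of these were lower in Cast/EiJ in F0 and in F1. For B2m they were Ctso (0.897), Rab6b (0.869) and Clu (0.864), on chromosomes 3, 9 and 14. Ctso, a cathepsin gene, had means of 272 in F0 C57BL/6J, 114 in F0 Cast/EiJ, and 183 and 148.5 on the F1 alleles. These correlations are descriptions, since the 18 points fall into few groups and the alleles of a library share its preparation.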

How the data were processed

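Per the labels and the study's methods, the authors trimmed reads with Trim Galore 0.2.6, mapped them with Bowtie 0.12.9 to transcriptomes of the own strain (F0) or of both strains (F1), made from Ensembl release 67 (NCBI37) and called Cast/EiJ variants, and estimated expression with MMSEQ. The deposited signal values are count equivalents, normalized by the authors to column totals of 12648792 to 13843914. The deposited natural log of expression was exponentiated to FPKM, the deposited posterior SD (a score) was read beside it, and the deposited unique hits are raw counts. The authors' comparison columns (posterior probabilities and Bayes factors) and 36 columns of per-sample values were not used.

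F0 strains were compared with limma 3.58.1 on log2 of count equivalents plus 1 over autosomal genes with at least 10 in 3 of 6 libraries. Alleles were compared in 1 limma model over all 12 libraries that treats alleles of the same F1 library as correlated (duplicateCorrelation, 0.135), over autosomal genes that are polymorphic and average 10 or more unique hits per F1 library. P-values were adjusted by Benjamini-Hochberg over all genes tested and calls had an adjusted p under 0.05. edgeR 4.0.16 and DESeq2 1.42.0 were run on unique hits, and the fits were tested on simulated data. Each library is a pool, so p-values measure the spread between pools. R 4.3.3, statmod 1.5.0, Python 3.11.15, numpy 2.4.6, pandas 2.3.3, scipy 1.17.1 and matplotlib 3.10.9 were used.

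The members and lists were chosen with earlier results of these data known. The genes named are the members, called list genes with a mean of at least 100, the 3 genes most like H2-D1, H2-K1 and B2m, the 3 largest F0 changes each way in the interval, and genes behind counts of 5 or fewer. Irf7, Oasl2, H2-T22, Kdr and the called microglia genes were named after their values were seen. Unique hits per library had medians of 10994604 in F0 C57BL/6J, 8234902 in F0 Cast/EiJ, 10186553 in F1 B6xCast and 10986285 in F1 CastxB6. Regulators with a higher Cast/EiJ allele are not reported here.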

Additional observations from a re-analysis of the deposited data

Results flagged for a closer look

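For 3 members the strain difference in F0 and the allelic difference in F1 were not the same by the test of the difference itself in limma's joint model. It was −0.83 for H2-D1, −0.68 for B2m and −0.72 for Tap2 (log2, F0 minus F1). In B2m the F1 alleles were close to equal, in H2-D1 the allelic difference was large and the call was lost without any 1 of 5 libraries and on the deposited log expression (−0.40, adjusted p = 0.425 by limma), and in Tap2 the call was lost without any 1 of 8 libraries. Lane number and the mapping reference differed between F0 and F1 and cannot be told apart from generation.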

How the results depend on the processing

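No result changed its direction while past the test. With no filter on low values 3161 genes passed in F0 in place of 4887, and 3 members in place of 5. All 10 entries and many low genes then entered the fit and the adjustment, and what changed the calls was not tested. With quantile normalization, chosen after seeing the data, 1 member in place of 2 passed for the C57BL/6J allele in F1 against F0, and 0 in place of 1 for the Cast/EiJ allele, where 3 of 6 members had an unadjusted p under 0.05 in the limma fit as reported and no other tool was run. The calls lost were those of Tap2 (adjusted p = 0.0543) and H2-D1 (0.0513), and the trans call of Tap2 was also lost (0.0793). The cause was not tested. Leaving out 1 library at a time gave 3 to 6 members in F0 (3 without F0 C57BL/6J replicate 3 or F0 Cast/EiJ replicate 1 or 3), 1 to 3 for the trans effect (1 without F0 C57BL/6J replicate 3, F0 Cast/EiJ replicate 3 or F1 CastxB6 replicate 3), 1 to 2 for the C57BL/6J allele and 0 to 2 for the Cast/EiJ allele against F0. The genes called ranged from 238 to 640 for the C57BL/6J allele against F0 and from 5 to 12 for the cross, against 519 and 6 with all libraries. They were 238 without F0 C57BL/6J replicate 2, 338 without F0 C57BL/6J replicate 3, and 12 without F1 B6xCast replicate 1.

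Of 18 correlations between the deviations of libraries with the same replicate number 6 were above 0.1 (range −0.12 to 0.394). These were the ones among replicates 1 and among replicates 3 of F0 C57BL/6J, F0 Cast/EiJ and F1 B6xCast. Since not every pair was above 0.1, the numbers were not taken to pair the samples. With a replicate block the Cast/EiJ allele of 2 members in place of 1 passed against F0 (Tapbp, −0.17, adjusted p = 0.0448 by limma), and Psmb8 passed in F0 (adjusted p = 0.0325). The block changed no other call of a member.

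In all F1 libraries H2-T23, Psmb8 and Psmb9 had 36, 57 and 1 allele-specific unique hits. Psmb8 was low in level, and the C57BL/6J allele of H2-T23 had 9.15 unique hits per 100 count equivalents (median of all genes 45.8). The 2 entries of Psmb9 share 99.9% and 79.7% of their windows of 1 read length.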
